A study of Mus musculus with 36 samples.

Results

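The core circadian clock genes were followed in mouse liver: Arntl (also called Bmal1), Clock, Npas2, Per1, Per2, Per3, Cry1, Cry2, Nr1d1 (REV-ERBα) and Nr1d2 (REV-ERBβ). They were found by symbol, as all probes other than controls whose gene name in the array files equalled 1 of these names, with no use of measured values. That gave 10 of the 37325 genes on the array and 24 of its 56605 probes. All 10 genes and all 24 probes passed the filter on dim signal, which kept 24251 genes. Liver RNA of 36 male C57Bl/6J mice was hybridised to 1-colour Agilent arrays, 1 array per mouse. The study crossed 2 genotypes with 3 conditions, with 6 mice in each group. AAKO mice lack adipose triglyceride lipase (ATGL), an enzyme that releases fatty acids from stored fat, in white adipose tissue, and CTRL mice are their controls. The labels used here do not name the Cre line, and they give no age. Fed mice ate freely, fasted mice went 24 h without food, and the remaining groups were fed and received CL316243. This agonist of the beta 3 adrenergic receptor, which drives lipolysis in adipocytes, was given once at 3 mg/kg by gavage in carboxymethyl cellulose at Zeitgeber time (ZT) 10. All 36 mice were killed at ZT16, in the dark phase, when mice normally feed. The fed groups without the agonist belong to experiment 2 and the other 4 groups to experiment 1. Condition and experiment therefore cannot be told apart in any comparison with the fed groups, and an effect of gavage or vehicle cannot be told apart from that of CL316243.

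The clock of a mammalian cell is a loop of transcription and its own repression. ARNTL pairs with CLOCK or NPAS2, binds E-box elements and switches on the Per and Cry genes, whose proteins later block that pair, and the Nr1d genes, whose proteins repress Arntl through ROR elements. In liver, feeding time sets the phase of this loop more strongly than light does, so clock RNAs respond to fasting as well as to time of day. With a single time of day, a changed phase, a changed amplitude and a changed mean level cannot be told apart.

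Levels are log2 of the processed signal minus log2 of the 75th percentile of the same array, so that 0 is the brightness of that percentile. A level compares arrays for the same probe and not one gene with another. A gene is said to be called, or to rise or fall, where limma gives an adjusted p under 0.05 over all 24251 genes tested. Between 33130 and 37200 probes (58.5 to 65.7%) were well above background on each array. One array stood apart: CTRL fasted replicate 2 lay at 81.3 on the first principal component, where the other 5 arrays of its group lay between 16.8 and 29.0 and the AAKO fasted arrays between 103 and 111. In CTRL fasted replicate 5, Arntl and Cry1 were the lowest of their group and Nr1d1, Nr1d2 and Per3 the highest. Results that use the CTRL fasted group are therefore also given without both arrays where a call changes. All 5 hepatocyte markers were well above background, with summed signals of 1810 to 2310 times the 75th percentile over all arrays. In bulk liver RNA, fewer cells of a type and less RNA per cell cannot be told apart.

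Promoter sequences are shown because 7 clock genes were higher together in fasted AAKO liver, and the loop is known to act through short promoter elements. RefSeq promoter windows (GRCm38.p6, 250 bases before and 50 after a start site) were found for 9 of the 10 genes, in 13 windows. Per2 had no entry. Both strands were searched for 6 motifs: the E-box CACGTG, the E-prime box CACGTT, the ROR element cores TAGGTCA and TGGGTCA, the D-box TTATGTAA bound by PAR-bZIP factors, and the cAMP response element TGACGTCA. At least 1 motif was in 6 of 13 clock windows, against 19.4% of the 32851 windows in the table, and no match overlapped another. The shares of all windows were 7.15% for the E-box, 4.68% for the E-prime box, 2.61% and 3.98% for the ROR cores, 0.938% for the D-box and 1.79% for the cAMP response element. The 250 bases before the start of the 5 genes with a match there are printed 5′ to 3′ on the gene's strand, with each match in capitals. A match on the opposite strand therefore reads as its reverse complement, such as AACGTG for the E-prime box.
Per1, chr11:69098699-69098948, plus strand: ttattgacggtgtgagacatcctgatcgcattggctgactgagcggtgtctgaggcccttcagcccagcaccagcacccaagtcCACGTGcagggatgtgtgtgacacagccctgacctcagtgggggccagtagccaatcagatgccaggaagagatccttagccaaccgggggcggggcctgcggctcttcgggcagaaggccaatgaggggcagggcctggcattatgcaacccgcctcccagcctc
Per3, chr4:151044666-151044915, minus strand: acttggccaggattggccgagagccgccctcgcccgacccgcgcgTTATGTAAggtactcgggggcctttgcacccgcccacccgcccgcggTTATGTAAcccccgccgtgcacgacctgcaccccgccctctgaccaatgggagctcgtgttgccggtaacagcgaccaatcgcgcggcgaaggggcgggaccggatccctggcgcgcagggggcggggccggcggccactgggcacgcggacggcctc
Cry1, chr10:85185055-85185304, minus strand: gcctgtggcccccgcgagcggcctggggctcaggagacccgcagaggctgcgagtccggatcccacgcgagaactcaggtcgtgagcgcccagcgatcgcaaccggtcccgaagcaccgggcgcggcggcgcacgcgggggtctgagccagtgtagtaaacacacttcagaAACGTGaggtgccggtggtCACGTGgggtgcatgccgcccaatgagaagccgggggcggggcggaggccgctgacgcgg
Cry2, chr2:92434070-92434319, minus strand: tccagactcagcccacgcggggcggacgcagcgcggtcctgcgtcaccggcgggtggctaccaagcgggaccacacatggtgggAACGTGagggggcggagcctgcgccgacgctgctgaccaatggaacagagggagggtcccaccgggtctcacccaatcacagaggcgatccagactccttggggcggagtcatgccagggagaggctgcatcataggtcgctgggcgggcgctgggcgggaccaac
Nr1d1, chr11:98775378-98775627, minus strand: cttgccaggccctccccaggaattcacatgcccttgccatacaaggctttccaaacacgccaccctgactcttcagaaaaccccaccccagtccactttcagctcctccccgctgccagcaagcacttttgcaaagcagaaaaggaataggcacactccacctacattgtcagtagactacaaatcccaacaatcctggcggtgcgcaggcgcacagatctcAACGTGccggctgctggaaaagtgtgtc
Arntl after its start site, chr7:113207530-113207559, plus strand: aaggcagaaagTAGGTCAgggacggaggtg
The first capital lay 166 bases upstream in Per1 (E-box), 205 and 158 bases upstream in Per3 (both D-boxes) and 166 bases upstream in Cry2 (E-prime box). It lay 79 bases upstream for the E-prime box and 60 for the E-box of Cry1, and 28 bases upstream for the E-prime box of Nr1d1. The ROR core of Arntl began at base 31 counted from the start as 1. A match is a description of the letters, and binding was not measured. No match was found in the windows of Clock, Npas2 or Nr1d2, which says only that these letters are not there.

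In the positive limb, Arntl spanned the widest range of levels of the 3 genes. Its lowest, median and highest levels were -2.03, -1.22 and -0.08 in CTRL fed and -1.52, -0.60 and -0.06 in AAKO fed liver. They were -0.12, 0.82 and 0.91 in CTRL fasted and 0.95, 1.15 and 1.41 in AAKO fasted liver. In the CL316243 groups Arntl reached only -4.12, -3.12 and -2.87 (CTRL) and -3.55, -3.12 and -2.61 (AAKO). Both fasted groups were thus highest, the fed groups in the middle and the CL316243 groups lowest, with no overlap between the CL316243 groups and any other. Between conditions only the fed and CTRL fasted ranges touched, through CTRL fasted replicate 5 and the highest fed arrays. Clock, the usual partner of ARNTL, varied far less, with group means between 1.28 ± 0.11 in AAKO CL316243 and 2.17 ± 0.11 in CTRL fasted liver (SD, n = 6). Npas2, which can stand in for CLOCK, was dim. Its probe was well above background on 5 of 6 CTRL fasted arrays but on only 0, 1, 2, 1 and 0 arrays of CTRL fed, AAKO fed, AAKO fasted, CTRL CL316243 and AAKO CL316243. Its values in the other groups are therefore largely bounds. It passed the filter on dim signal only through CTRL fasted liver, where it is brightest. Its differences from that group are partly set by that filter and are given as a description.

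**Figure D1:**
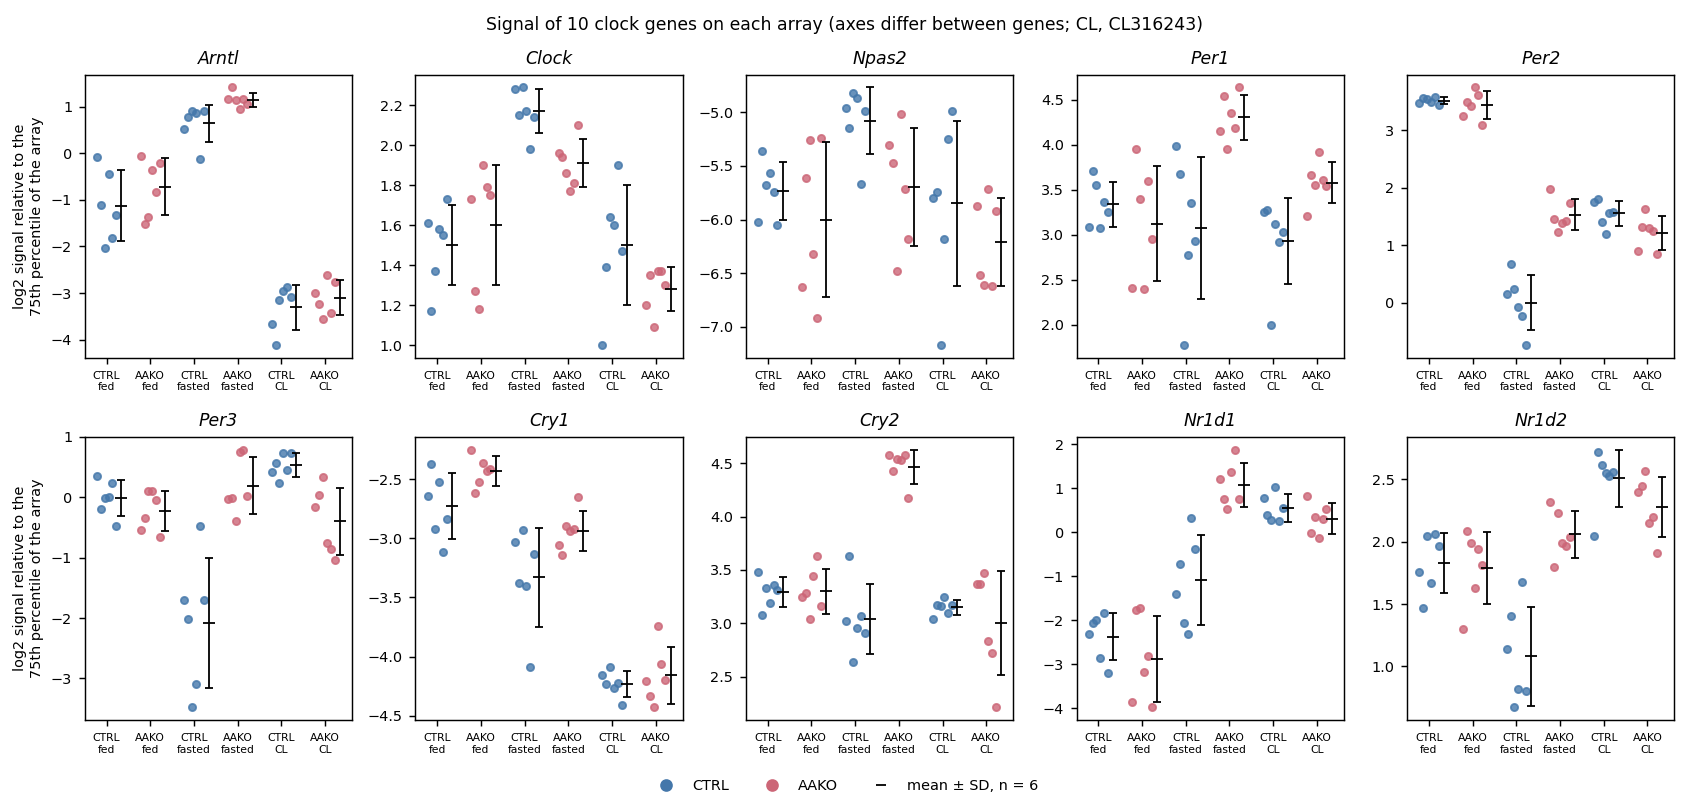
Levels of the 10 clock genes in each liver, 1 panel per gene. The vertical axis is log2 signal relative to the array's 75th percentile, each point is 1 mouse, and bars are means with SD over 6 mice of the 6 groups on the horizontal axis. Arntl is highest in both fasted groups and lowest after CL316243, while Per2 is highest in both fed groups and lowest in CTRL fasted liver.

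The Per genes, which encode repressors of the loop, did not share a pattern. Per2 was at 3.43, 3.52 and 3.58 (lowest, median, highest) in CTRL fed and 3.09, 3.45 and 3.74 in AAKO fed liver. In CTRL fasted liver it was at -0.74, 0.03 and 0.67, and in AAKO fasted liver at 1.23, 1.44 and 1.97. After CL316243 it was at 1.20, 1.57 and 1.80 in CTRL and 0.85, 1.28 and 1.62 in AAKO. Every fed array lay above every other array and every CTRL fasted array below every other array, while the other 3 groups overlapped one another. Per3 had a lowest, median and highest level of -3.48, -1.85 and -0.47 in CTRL fasted liver, against -0.39, 0.01 and 0.79 in AAKO fasted liver. In the other groups its levels ran from -0.48 to 0.36 (CTRL fed), -0.66 to 0.10 (AAKO fed), 0.23 to 0.74 (CTRL CL316243) and -1.04 to 0.34 (AAKO CL316243). The CTRL fasted group was the lowest for Per3 as for Per2, and its SD of 1.08 was the widest of the 6. Per1, the Per gene that responds fastest to hormones and cAMP, was highest in AAKO fasted liver (3.96, 4.27 and 4.64). It was at 1.77, 3.14 and 3.99 in CTRL fasted liver, and the means of the other 4 groups lay between 2.93 and 3.58.

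Of the Cry genes, partners of PER in repression, Cry2 stood apart in a single group. Its lowest, median and highest levels in AAKO fasted liver were 4.18, 4.54 and 4.58. All 30 arrays of the other groups lay lower, between 2.21 and 3.63, with group means of 3.00 to 3.30. Cry1 instead separated by condition: its means were -2.73 ± 0.28 and -2.43 ± 0.13 in CTRL and AAKO fed liver and -3.33 ± 0.42 and -2.94 ± 0.17 in CTRL and AAKO fasted liver. The CL316243 means were lowest, at -4.23 ± 0.11 for CTRL and -4.16 ± 0.24 for AAKO. CTRL fasted replicate 5, at -4.09, was the only array of the fed and fasted groups within the AAKO CL316243 range of -4.43 to -3.74.

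The REV-ERB genes encode the nuclear receptors that repress Arntl. Nr1d1 was at -3.19, -2.19 and -1.83 (lowest, median, highest) in CTRL fed and -3.98, -3.00 and -1.71 in AAKO fed liver. It was at -2.32, -1.07 and 0.33 in CTRL fasted and 0.52, 0.98 and 1.88 in AAKO fasted liver. The CL316243 groups were at 0.25, 0.47 and 1.04 in CTRL and -0.13, 0.32 and 0.82 in AAKO. Fed livers were thus lowest, CTRL fasted livers spread over the interval between, and the remaining 3 groups highest. Nr1d2 varied less, with means of 1.83 ± 0.24 and 1.79 ± 0.29 in CTRL and AAKO fed, 1.08 ± 0.40 and 2.06 ± 0.19 in CTRL and AAKO fasted, and 2.51 ± 0.23 and 2.28 ± 0.24 in CTRL and AAKO CL316243 liver. It was lowest in CTRL fasted liver and highest after CL316243.

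In fasted mice the genotype comparison asks what the absence of adipose ATGL changed in the liver's fasting state, and 7 of the 10 clock genes were higher in AAKO and 0 lower. Of all genes tested, 21.3% were called higher and 28% lower in this contrast, and the median log2 fold change was 1.1 over the clock genes against -0.04 over all genes. Per3 was 4.81-fold higher (log2 fold change 2.27 ± 0.32, SE; limma adjusted p = 6.76e-07) and Nr1d1 4.50-fold higher (2.17 ± 0.38, adjusted p = 1.73e-05). Per2 was 2.90-fold (1.54 ± 0.16, adjusted p = 2.39e-09), Cry2 2.70-fold (1.43 ± 0.15, adjusted p = 3.19e-09) and Nr1d2 1.97-fold higher (0.98 ± 0.16, adjusted p = 4.46e-06). For these 5 genes all 6 AAKO arrays lay above all 6 CTRL arrays. Per1 was 2.34-fold higher (1.23 ± 0.28, adjusted p = 0.000431), with CTRL replicate 1 at 3.99 just above the lowest AAKO array. Cry1 was 1.31-fold higher with overlapping ranges (0.39 ± 0.14, adjusted p = 0.0233). The positive limb gave no call: Arntl differed by 0.51 ± 0.28 (adjusted p = 0.141), although every AAKO array lay above every CTRL array, Clock by -0.26 ± 0.12 (adjusted p = 0.0735) and Npas2 by -0.62 ± 0.31 (adjusted p = 0.0948).

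Within wash batches 1 and 2 (3 arrays of each genotype in each) the fasted genotype difference was 1.76 and 2.78 for Per3, 1.38 and 2.97 for Nr1d1, 1.72 and 1.35 for Per2, 1.51 and 1.36 for Cry2, and 0.97 and 0.98 for Nr1d2. All of these were called. That of Per1 was 1.70 and 0.76, the latter not called (adjusted p = 0.165), and that of Cry1 was called in neither (0.49 and 0.29). Without CTRL fasted replicates 2 and 5 the differences were 2.68 for Per3, 2.62 for Nr1d1, 1.64 for Per2, 1.59 for Cry2, 1.44 for Per1 and 1.20 for Nr1d2, all called, and 6 clock genes were called in all. The Cry1 call was lost in that fit (0.19, adjusted p = 0.231), without CTRL fasted replicate 5 alone (0.23, adjusted p = 0.114), without AAKO fasted replicate 6 (0.33, adjusted p = 0.0658), after normexp background correction (0.13), and in a fit of only the groups compared (adjusted p = 0.0995). Clock was called lower without CTRL fasted replicate 5 (-0.30, adjusted p = 0.048), after quantile normalization (-0.30) and with only the groups compared (-0.26). With only those groups Arntl was called higher (0.51, adjusted p = 0.0316) and Npas2 lower (-0.62, adjusted p = 0.0331), and Arntl also after normexp correction (0.47). Markers of other cell types were called in the same contrast, in which 21.3% of all genes were called higher and 28% lower. Among them 4 of 6 neutrophil, 2 of 5 endothelial and 2 of 5 stellate cell markers were called higher, and 2 of 5 cholangiocyte markers lower. Summed signals were 1.06 to 51.4 in CTRL and 5.94 to 81.7 in AAKO for the neutrophil list, 58.2 to 72.3 and 74.6 to 100 for the stellate list, and 19.2 to 40.7 and 31.8 to 41.3 for the endothelial list. The cholangiocyte sums were 3.75 to 5.98 and 2.82 to 7.44. Of the hepatocyte markers 2 were higher and 3 lower, with sums of 1910 to 2070 and 1980 to 2080. None of the 6 Kupffer cell markers was called (18.2 to 63.9 and 10.9 to 61.2), 1 of 4 lymphocyte markers was lower (2.12 to 2.96 and 1.88 to 2.48), and of 4 adipocyte markers 1 was higher and 2 lower (17.4 to 143 and 7.21 to 36.1). The part of other cells in the clock gene differences was not tested.

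**Figure D2:**
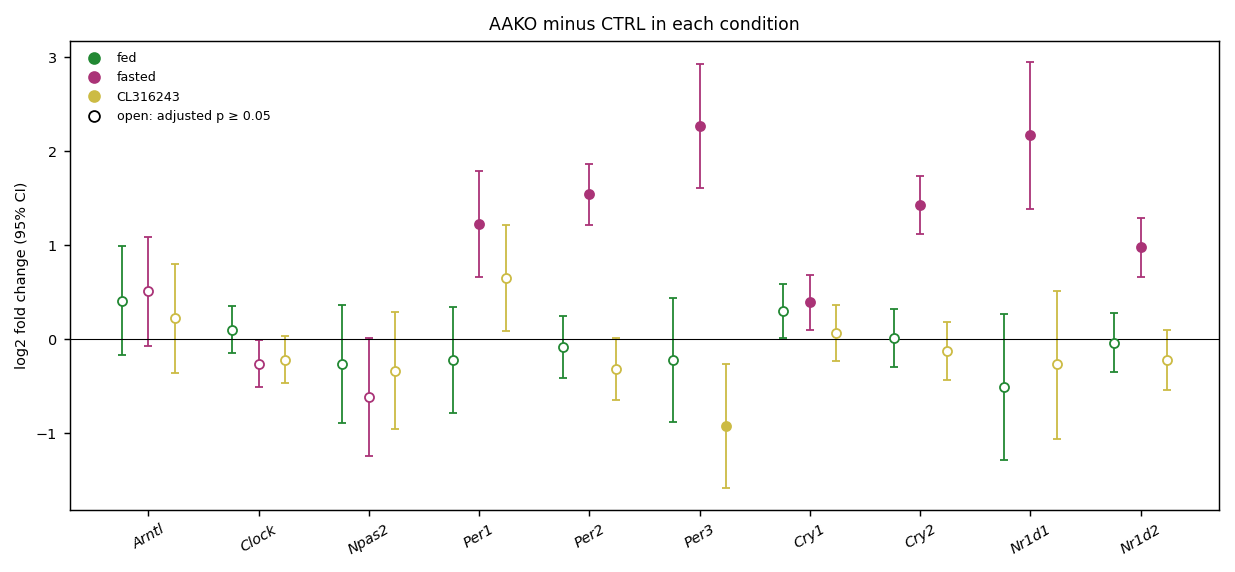
AAKO minus CTRL for each clock gene in fed, fasted and CL316243-treated mice. Points are log2 fold changes from limma and bars their 95% confidence intervals, with filled points for an adjusted p under 0.05. The 7 filled points above 0 are all from fasted mice, and the only other filled point is Per3 after CL316243, at -0.93.

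Fed mice of the 2 genotypes were not told apart by any clock gene. Limma called 0 of 10, with 1 (Cry1) at an unadjusted p under 0.05, and among all genes 0.0412% were called higher and 0.0371% lower. The largest estimates were -0.51 for Nr1d1 (95% confidence interval -1.29 to 0.27), 0.41 for Arntl (-0.17 to 0.99) and 0.30 for Cry1 (0.01 to 0.59, adjusted p = 0.726). Intervals were narrow for Per2 (-0.41 to 0.25), Cry2 (-0.30 to 0.32), Nr1d2 (-0.35 to 0.28) and Clock (-0.15 to 0.35). They left wider room for Per1 (-0.79 to 0.34), Per3 (-0.88 to 0.44) and Npas2 (-0.89 to 0.36).

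After CL316243, 1 clock gene was called lower in AAKO and 0 higher, where 11.3% and 13.4% of all genes were called lower and higher. That gene was Per3, 1.91-fold lower with overlapping ranges (-0.93 ± 0.32, adjusted p = 0.0333). Its other 2 probes were also called lower, by -0.97 and -1.18 (adjusted p = 0.0108 and 0.0176). The call of the first probe did not hold without CTRL CL316243 replicate 2 (-0.93), 4 (-0.89) or 6 (-0.89), or without AAKO CL316243 replicate 4 (-0.85), 5 (-0.84) or 6 (-0.81), with a largest adjusted p of 0.0856. Within wash batches 1 and 2 it was -1.09 and -0.68, called in neither. Clock was called lower without CTRL CL316243 replicate 1 (-0.32, adjusted p = 0.0428). Per1 was higher by 0.65 ± 0.28 and Per2 lower by -0.32 ± 0.16, without a call (adjusted p = 0.0858 and 0.148). The other 7 genes, Clock included, had estimates between -0.34 and 0.22.

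Interactions test whether the genotype difference itself depended on the condition, and an effect of the experiment that is common to both genotypes cancels in them. Between fasted and fed mice, 6 clock genes had a more positive genotype difference when fasted and 0 a more negative one, against 14.5% and 19.4% of all genes. These were Nr1d1 (2.68 ± 0.54, adjusted p = 0.000222), Per3 (2.48 ± 0.46, adjusted p = 7.78e-05), Per2 (1.62 ± 0.23, adjusted p = 1.86e-06), Per1 (1.45 ± 0.39, adjusted p = 0.00434), Cry2 (1.42 ± 0.22, adjusted p = 5.32e-06) and Nr1d2 (1.01 ± 0.22, adjusted p = 0.000574). Cry1 had none that was called (0.09, 95% confidence interval -0.32 to 0.50), nor did Arntl (0.10, -0.72 to 0.92). Clock was at -0.36 (adjusted p = 0.102), and it was called without AAKO fed replicate 3 (-0.45, adjusted p = 0.0307). Within wash batch 1 the interactions of Nr1d1 (1.65), Per3 (1.64) and Nr1d2 (0.85) were not called, and within wash batch 2 that of Per1 (0.89) was not. Without CTRL fasted replicates 2 and 5 all 6 were called, at 3.13 for Nr1d1, 2.90 for Per3, 1.72 for Per2, 1.67 for Per1, 1.58 for Cry2 and 1.24 for Nr1d2.

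Fasted and CL316243-treated mice come from the same experiment, and 5 clock genes had a more positive genotype difference when fasted, with 0 more negative, against 12.7% and 19.6% of all genes. Per3 gave 3.20 ± 0.46 (adjusted p = 2.98e-06), Nr1d1 2.45 ± 0.54 (adjusted p = 0.000714), Per2 1.86 ± 0.23 (adjusted p = 2.94e-07), Cry2 1.57 ± 0.22 (adjusted p = 1.73e-06) and Nr1d2 1.20 ± 0.22 (adjusted p = 9.45e-05). For Per3 the 2 genotype differences had opposite signs, 2.27 when fasted and -0.93 after CL316243. Per1 was not called (0.57, 95% confidence interval -0.23 to 1.37). Cry1 was not called either (0.33), but it was in the authors' value table (0.42, adjusted p = 0.0339). Within wash batches 1 and 2 the values were 2.85 and 3.45 for Per3, 2.16 and 1.47 for Per2 and 1.76 and 1.33 for Cry2, all called. Those of Nr1d1 in wash batch 1 (1.53) and Nr1d2 in wash batch 2 (1.03) were not called, against 3.41 and 1.34 in the other batch. Between CL316243 and fed mice limma called 0 of 10 interactions, with 1 (Per1, 0.88 ± 0.39) at an unadjusted p under 0.05. In that contrast 6.34% of all genes were called more positive and 4.52% more negative.

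Fasting against feeding was examined in each genotype, with condition and experiment confounded. In CTRL liver 3 clock genes were higher after the fast and 4 lower, where 20.9% and 22.4% of all genes were called higher and lower. Per2 was 11.4-fold lower (-3.51 ± 0.16, adjusted p = 2.43e-16) and Per3 4.18-fold lower (-2.06 ± 0.32, adjusted p = 3.86e-06), with smaller falls of Nr1d2 (-0.74 ± 0.16, adjusted p = 0.000222) and Cry1 (-0.59 ± 0.14, adjusted p = 0.00101). Arntl was 3.42-fold higher (1.77 ± 0.28, adjusted p = 5.38e-06), Nr1d1 2.43-fold (1.28 ± 0.38, adjusted p = 0.00668) and Clock 1.59-fold (0.67 ± 0.12, adjusted p = 3.63e-05). All 6 fasted arrays lay beyond all 6 fed arrays for Per2 and Clock. The ranges of the other 5 genes overlapped. The rise of Clock differed between its probes. At the second, well above background on all 36 arrays, it was 0.21 (adjusted p = 0.173), not called. The third, also well above background on all 36 arrays, was called higher, at -1.70 ± 0.22 fed and -1.35 ± 0.2 fasted. The fourth, well above background on 15 of 36 arrays, gave 0.71 (adjusted p = 0.0861), not called. The size of the rise, 1.59-fold, is therefore that of the first probe. Npas2 was above background by the scanner's mark on 0 of 6 CTRL fed arrays, and it was at -5.08 ± 0.31 in CTRL fasted liver. Under the scaling used here this gave a bound of 1.40-fold, but the difference was not called (0.66 ± 0.31, adjusted p = 0.0831). The difference was called in a fit of only the groups compared (adjusted p = 0.00756). Over the settings other than leaving out 1 array it ran from 0.02 to 0.94. Npas2 passed the filter on dim signal only through CTRL fasted liver, so this difference is a description. Per1 and Cry2 were not called (-0.26 ± 0.28 and -0.25 ± 0.15). The Nr1d1 call was lost without CTRL fasted replicates 2 and 5 (0.83, adjusted p = 0.0926) and within wash batch 2 (0.96), and Cry1 was not called within wash batch 2 (-0.40). Cry2 was called lower without CTRL fasted replicate 2 (-0.36, adjusted p = 0.0491), and without replicates 2 and 5 (-0.41).

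AAKO liver gave 5 clock genes higher and 2 lower after the fast, against 27.8% and 35.7% of all genes. Nr1d1 was 15.6-fold higher (3.96 ± 0.38, adjusted p = 1.11e-10), Arntl 3.66-fold (1.87 ± 0.28, adjusted p = 8.44e-07), Per1 2.28-fold (1.19 ± 0.28, adjusted p = 0.000392) and Cry2 2.25-fold (1.17 ± 0.15, adjusted p = 5.23e-08), each with all 6 fasted arrays above all 6 fed arrays. Clock was 1.23-fold higher with overlapping ranges (0.30 ± 0.12, adjusted p = 0.0306). Per2 was 3.73-fold lower (-1.90 ± 0.16, adjusted p = 6.88e-12) and Cry1 1.42-fold lower (-0.51 ± 0.14, adjusted p = 0.00265), with no overlap. Per3 and Nr1d2 were not called (0.42 ± 0.32 and 0.27 ± 0.16, adjusted p = 0.264 and 0.139). The Clock call did not hold when AAKO fed replicate 2 (0.24) or 3 (0.21) was left out, without AAKO fasted replicate 1 (0.29) or 6 (0.26), and within either wash batch (0.34 and 0.26). Cry1 was not called within wash batch 1 (-0.46), and Per3 was called higher within wash batch 2 (1.02). On fasting, 20.9% of all genes were called higher and 22.4% lower in CTRL, and 27.8% and 35.7% in AAKO. Of the Kupffer cell markers 3 of 6 were lower in CTRL and 4 of 6 in AAKO. The summed adipocyte list spanned 1.35 to 1.88 fed and 17.4 to 143 fasted in CTRL, and 0.916 to 1.32 fed and 7.21 to 36.1 fasted in AAKO, with 2 of its 4 genes higher and 1 lower in each. The median log2 fold change of that list was only 0.43 in CTRL and 0.36 in AAKO. Here and in the other comparisons its sum follows its brightest genes and is not a count of adipocytes. The stellate list summed to 42.9 to 58.5 fed and 58.2 to 72.3 fasted in CTRL (1 of 5 higher, 1 lower) and to 44.3 to 56.1 and 74.6 to 100 in AAKO (2 higher, 1 lower). Of 5 cholangiocyte markers 3 were lower in each genotype, with sums of 5.64 to 12.5 fed and 3.75 to 5.98 fasted in CTRL and of 5.5 to 17.3 and 2.82 to 7.44 in AAKO. Neutrophil markers were higher in AAKO (4 of 6, sums of 1.24 to 31.7 fed and 5.94 to 81.7 fasted) and none was called in CTRL (1.18 to 4.48 and 1.06 to 51.4). Endothelial markers went both ways, 1 higher and 1 lower of 5 in CTRL and 2 and 2 in AAKO. The part of these cells was not tested.

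**Figure D3:**
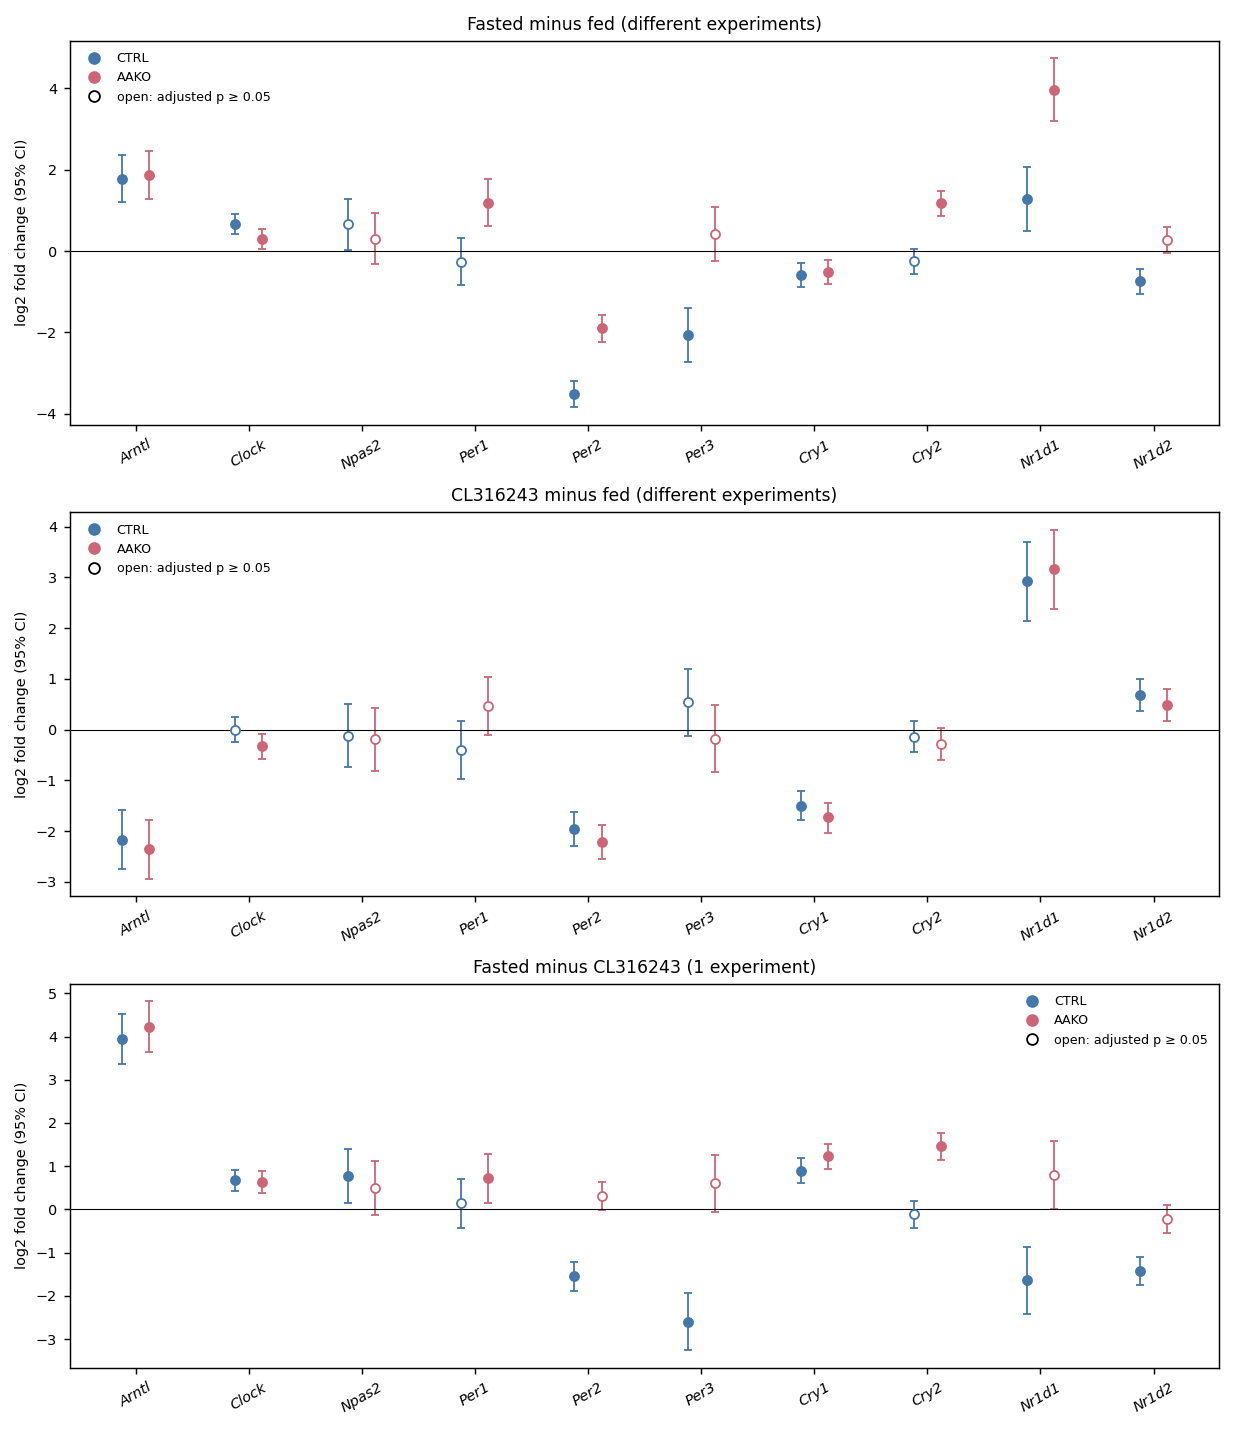
Differences between conditions, by genotype, for the 10 clock genes. The panels show fasting against fed, CL316243 against fed, and fasting against CL316243. Points are log2 fold changes from limma, and bars are 95% confidence intervals. After the fast Per3 lies at -2.06 in CTRL and 0.42 in AAKO, and no interaction of CL316243 with fed was called, with Per1 at -0.41 in CTRL and 0.47 in AAKO.

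CL316243 against feeding gave 2 clock genes higher and 3 lower in CTRL liver, where 10.4% and 12.8% of all genes were called higher and lower. Nr1d1 was 7.59-fold higher (2.92 ± 0.38, adjusted p = 1.44e-06), with every treated array above every fed array, and Nr1d2 1.60-fold higher (0.68 ± 0.16, adjusted p = 0.00181). Arntl was 4.51-fold lower (-2.17 ± 0.28, adjusted p = 1.50e-06), Per2 3.90-fold (-1.96 ± 0.16, adjusted p = 7.67e-10) and Cry1 2.82-fold (-1.50 ± 0.14, adjusted p = 8.91e-09), all 3 without overlap. Clock, Cry2, Npas2, Per1 and Per3 were not called, with estimates between -0.41 and 0.54 at their brightest probes. The third probe of Clock was called lower (-0.84 ± 0.10, adjusted p = 2.54e-07), and Per3 was called higher in a fit of only the groups compared (0.54, adjusted p = 0.0211). The Nr1d2 call did not hold within wash batch 2 (0.48).

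In AAKO liver 2 clock genes were higher and 4 lower after CL316243, against 15.7% of all genes in each direction. Nr1d1 was 8.95-fold higher (3.16 ± 0.38, adjusted p = 1.67e-07), Arntl 5.14-fold lower (-2.36 ± 0.29, adjusted p = 1.59e-07), Per2 4.62-fold lower (-2.21 ± 0.16, adjusted p = 2.40e-11) and Cry1 3.33-fold lower (-1.73 ± 0.14, adjusted p = 1.68e-10), each without overlap. Nr1d2 was 1.41-fold higher (0.49 ± 0.16, adjusted p = 0.0161) and Clock 1.26-fold lower (-0.33 ± 0.12, adjusted p = 0.0378), with overlapping ranges. Neither of these calls held within a wash batch alone (0.39 and 0.63 for Nr1d2, -0.32 and -0.36 for Clock). That of Nr1d2 was lost without AAKO fed replicate 1 (0.39). That of Clock, at its brightest probe, was lost without AAKO fed replicate 1 (-0.30), 4 (-0.27), 5 (-0.29) or 6 (-0.30). It was also lost without AAKO CL316243 replicate 1 (-0.31), 3 (-0.29) or 6 (-0.33). At probe 3 of Clock, AAKO levels were -2.07 to -1.84 fed and -2.86 to -2.49 after CL316243, without overlap. At probe 2 the AAKO means were 0.34 ± 0.25 fed and -0.10 ± 0.26 after CL316243, with overlapping ranges. Probe 4, well above background on 15 of 36 arrays, was not called (-0.06, adjusted p = 0.912). Per1 (0.47), Per3 (-0.18), Cry2 (-0.28) and Npas2 (-0.19) were not called at their brightest probes. Per3 was called lower at its second probe (-0.97, adjusted p = 0.0081), which was well above background on all 36 arrays. Against fed liver, 4 and 5 of 6 Kupffer cell markers, 4 and 2 of 5 endothelial and 3 and 3 of 5 stellate cell markers were lower after CL316243 in CTRL and AAKO, and their part was not tested. Of all genes, 12.8% and 15.7% were called lower there.

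Fasting against CL316243 lies within experiment 1. In CTRL liver 4 clock genes were higher after the fast and 4 lower, where 19.2% and 17.6% of all genes were called. The 4 higher include Npas2, whose call is limited by the filter on dim signal, as given below. Arntl was 15.4-fold higher (3.95 ± 0.28, adjusted p = 4.28e-12), Cry1 1.87-fold (0.90 ± 0.14, adjusted p = 6.59e-06) and Clock 1.59-fold (0.67 ± 0.12, adjusted p = 4.58e-05), all without overlap. Per3 was 6.07-fold lower (-2.60 ± 0.32, adjusted p = 1.34e-07), Per2 2.93-fold (-1.55 ± 0.16, adjusted p = 5.34e-09) and Nr1d2 2.68-fold (-1.42 ± 0.16, adjusted p = 1.57e-08), also without overlap, and Nr1d1 3.13-fold with overlap (-1.64 ± 0.38, adjusted p = 0.000856). Npas2 was higher by 0.78 ± 0.31 (adjusted p = 0.0450), a call that was lost without any 1 of 9 arrays, with a lowest value of 0.49 without CTRL CL316243 replicate 3. Those arrays were CTRL fasted replicates 1 (0.76), 2 (0.80), 3 (0.71), 4 (0.74) and 6 (0.75) and CTRL CL316243 replicates 1 (0.78), 2 (0.81), 3 and 4 (0.72). It was also lost in either wash batch (0.56 and 0.99), with normexp correction (0.00) and with the authors' deposited values (0.10). Npas2 passed the filter on dim signal only through CTRL fasted liver, so its call here cannot serve as support. Within wash batch 1 Clock (0.51) and Nr1d1 (-1.26) were not called. Without CTRL fasted replicates 2 and 5 all 8 genes were called, but for Npas2 (0.94) the same limit of the filter holds.

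In AAKO liver the same comparison gave 5 clock genes higher after the fast and 0 lower, against 26.2% and 33.8% of all genes. Arntl was 18.8-fold higher (4.23 ± 0.29, adjusted p = 7.22e-14), Cry2 2.74-fold (1.46 ± 0.15, adjusted p = 9.90e-10), Cry1 2.34-fold (1.23 ± 0.14, adjusted p = 8.27e-09), Per1 1.65-fold (0.72 ± 0.28, adjusted p = 0.0266) and Clock 1.55-fold (0.63 ± 0.12, adjusted p = 4.18e-05). For all 5 the groups did not overlap. Per2 (0.31 ± 0.16), Per3 (0.60 ± 0.32), Nr1d1 (0.80 ± 0.38), Nr1d2 (-0.22 ± 0.16) and Npas2 (0.50 ± 0.31) were not called. Per1 lost its call without AAKO fasted replicate 2 (0.66) or 6 (0.64), without AAKO CL316243 replicate 1 (0.65), and within wash batch 2 (0.50). Nr1d1 was called without AAKO fasted replicate 3 (0.94, adjusted p = 0.0461), after normexp correction (0.73, adjusted p = 0.0126) and in a fit of only the groups compared (0.72, adjusted p = 0.0176). Per3 was called with the slide as a fixed factor (0.71, adjusted p = 0.0485). In the authors' value table Per2 (0.38), Per3 (0.63), Nr1d1 (0.89) and Npas2 (0.18) were called as well, whereas Npas2 was called lower after normexp correction (-0.16, adjusted p = 0.037).

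Markers of other cell types were also called between fasting and CL316243. Of all genes, 19.2% were called higher and 17.6% lower after the fast in CTRL, and 26.2% and 33.8% in AAKO. Stellate sums were 58.2 to 72.3 fasted and 29.2 to 41.7 after CL316243 in CTRL, and 74.6 to 100 and 31.2 to 50.9 in AAKO, with 2 of 5 markers higher and 1 lower after the fast in each. Adipocyte sums were 17.4 to 143 and 2.27 to 9.51 in CTRL (1 of 4 higher, 1 lower) and 7.21 to 36.1 and 1.08 to 1.55 in AAKO (2 higher, 1 lower). The median log2 fold change of the adipocyte list was only 0.25 in CTRL and 0.2 in AAKO. Of 5 endothelial markers 3 were higher after the fast in each genotype, of 6 neutrophil markers 4 were higher in AAKO and 0 in CTRL, and of 5 cholangiocyte markers 1 was lower in CTRL and 2 in AAKO. None of the 6 Kupffer cell markers was called in either. Their part in the clock gene differences was not tested.

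Each value above comes from the gene's brightest probe. In mm9 coordinates these probes lie at chr7:120456978-120457037 (Arntl), chr5:76639992-76640051 (Clock), chr1:39418941-39419000 (Npas2), chr11:68923364-68923423 (Per1), chr1:93312595-93312654 (Per2), chr4:150385608-150385667 (Per3), chr10:84647094-84647153 (Cry1), chr2:92243807-92243866 (Cry2), chr11:98630526-98631028 (Nr1d1) and chr14:19036568-19036627 (Nr1d2). No annotation of that build was used, so exon or UTR is not stated. All 3 probes of Cry2 gave similar differences between fasted genotypes (1.43, 1.28 and 1.81), as did all 3 of Nr1d2 (0.98, 1.19 and 1.36), each called. The 3 probes of Per3 gave 2.27, 1.18 and 2.02, all called, the last with the probe well above background on 1 of 6 CTRL fasted arrays. They disagreed on fasting in AAKO liver: 0.42 for the first, -1.30 for the second (adjusted p = 0.000143) and -0.78 for the third (adjusted p = 0.0613). The 2 dimmer probes of Nr1d2 were called there (0.49 and 0.62), while the brightest was not.

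**Figure D4:**
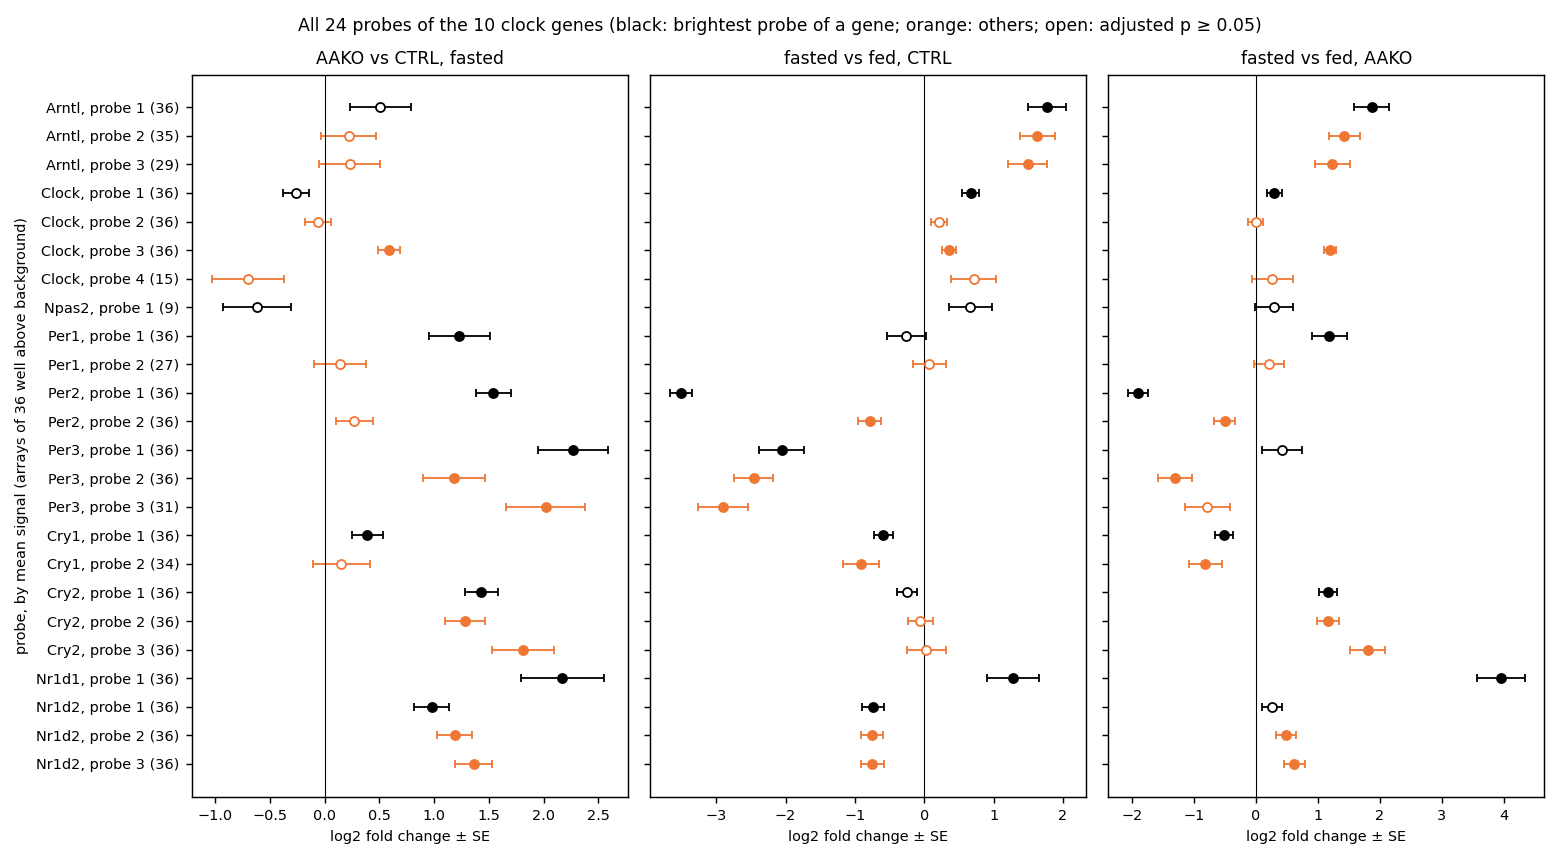
Log2 fold changes at each of the 24 clock gene probes, with bars of ± SE, from a fit over all probes kept. The panels show the fasted genotype difference (AAKO minus CTRL) and fasting against fed in CTRL and in AAKO. Probes are ordered within each gene by mean signal and filled points have an adjusted p under 0.05. For the fasted genotype difference all probes of Per3, Cry2 and Nr1d2 lie above 0, and Clock has probes on both sides of 0.

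The probes of Clock disagreed in direction between fasted genotypes. The third of its probes (chr5:76664578-76664637) was well above background on all 36 arrays and gave a fasted genotype difference of 0.59 ± 0.10 (adjusted p = 6.58e-06), where the first gave -0.26. On fasting in AAKO liver it gave 1.20 ± 0.10 (adjusted p = 2.58e-12) against 0.30 and about 0 for the first 2 probes. The direction of Clock between genotypes therefore holds for the probe named and not for the gene. For Per1 and Per2 the second probe was dim, with mean levels of -5.07 and -3.67, and gave fasted genotype differences of 0.14 ± 0.24 and 0.27 ± 0.17, not called. Per1 was well above background at that probe on 27 of 36 arrays and Per2 on all 36. The second probe of Per2 was also called lower on fasting, but by far less than the first, at -0.79 ± 0.17 in CTRL (adjusted p = 0.000236) and -0.50 ± 0.17 in AAKO (adjusted p = 0.00921). Its interactions of fasted with fed (0.29, adjusted p = 0.367) and with CL316243 (0.16, adjusted p = 0.657) were not called, nor was its difference between fasting and CL316243 in CTRL (-0.19, adjusted p = 0.391). At the second probe of Per1 the interaction of fasted with fed was 0.14 (adjusted p = 0.791). The fold changes of Per1 and Per2 and their interactions are therefore those of the first probe. The second probe of Cry1 gave 0.15 ± 0.26, not called. The 3 probes of Arntl gave 0.51, 0.22 and 0.23, none of them called.

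Other genes of the clock system were read from 3 lists. The first holds 15 regulators of clock protein or RNA, such as kinases and ubiquitin ligase subunits. In fasted mice 7 of the 15 were higher and 4 lower in AAKO, where 21.3% and 28% of all genes were called in these directions. Ciart, which encodes a repressor of the ARNTL and CLOCK pair, was higher by 3.40 ± 0.53 (adjusted p = 2.89e-06). Btrc, a ubiquitin ligase subunit that marks PER for degradation, was lower by -0.94 ± 0.11 (adjusted p = 9.70e-09). Ciart spanned -4.80 to -0.01 in CTRL fasted and 0.23 to 1.14 in AAKO fasted liver. Csnk1e, a kinase gene whose product acts on the stability of PER, was among those called higher (0.79 ± 0.09, adjusted p = 2.88e-08). On fasting, Ciart fell in CTRL (-2.24 ± 0.53, adjusted p = 0.000825) and rose in AAKO (2.50 ± 0.53, adjusted p = 0.000125), with an interaction of 4.74 ± 0.75 (adjusted p = 1.02e-05).

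The second list holds 10 direct outputs of the clock. Of these, 8 were higher and 1 lower in AAKO than in CTRL fasted liver (21.3% and 28% of all genes), with Usp2 (2.14 ± 0.33, adjusted p = 2.76e-06) and Bhlhe40 (2.12 ± 0.20, adjusted p = 2.17e-10) showing the largest differences. Bhlhe40 encodes a repressor that binds E-boxes, and its levels were -0.01 to 1.54 in CTRL fasted and 2.30 to 3.41 in AAKO fasted liver, with 2.34 to 3.41 over both fed groups. On fasting 7 of the 10 fell and 2 rose in CTRL, against 22.4% and 20.9% of all genes, and Usp2 fell by 3.22 ± 0.33 (adjusted p = 2.55e-09) and Dbp, the D-box activator, by 2.20 ± 0.34 (adjusted p = 2.49e-06). In AAKO 3 rose and 2 fell, against 27.8% and 35.7%. After CL316243 the genotypes differed most in Wee1, a cell cycle kinase gene under clock control (-2.59 ± 0.23, adjusted p = 1.80e-09), and in Hlf (-1.29 ± 0.13, adjusted p = 6.98e-09), both lower in AAKO with no overlap. Wee1 levels were -1.46 to -0.17 in CTRL and -3.96 to -2.34 in AAKO after CL316243, and the interaction of fasted with CL316243 was 3.36 ± 0.33 (adjusted p = 1.13e-08).

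The third list holds 10 genes that respond to glucocorticoid, cAMP or heat, cues known to reset Per genes. In fasted mice 5 were higher and 1 lower in AAKO, beside 21.3% and 28% of all genes. Among the higher were the heat shock gene Hspa1a (3.30 ± 0.38, adjusted p = 1.21e-08) and the glucocorticoid-responsive kinase gene Sgk1 (2.21 ± 0.23, adjusted p = 3.04e-09), both without overlap. The other heat shock genes of the list gave other values: Hspa1b, a near-identical copy of Hspa1a, was at -0.18 ± 0.29 (adjusted p = 0.648) and Hsp90aa1 at -0.14 ± 0.15 (adjusted p = 0.458), neither called, and Hspa8 was the gene called lower (-0.69 ± 0.11, adjusted p = 4.59e-06). On fasting Hspa1b fell in both genotypes (-3.84 ± 0.29 in CTRL, adjusted p = 3.88e-12; -3.46 ± 0.29 in AAKO, adjusted p = 5.90e-12), as did Hspa8 and Hsp90aa1. Hspa1a fell in CTRL by 3.84 ± 0.38 (adjusted p = 9.07e-10) and was at -0.08 ± 0.38 in AAKO, not called. The probes of the 2 copies thus disagree in AAKO liver, and because each may read both, the Hspa1a value is uncertain. Sgk1 rose in both, by 0.74 ± 0.23 in CTRL (adjusted p = 0.0108) and 2.71 ± 0.23 in AAKO (adjusted p = 1.01e-11). Tsc22d3 and Fkbp5, glucocorticoid-responsive genes of the same list, differed less between fasted genotypes, with overlapping ranges. Tsc22d3 was at 5.19 ± 0.22 fed and 3.65 ± 0.39 fasted in CTRL, and at 4.95 ± 0.51 and 4.24 ± 0.32 in AAKO. Fkbp5 was at 3.80 ± 0.23 and 4.51 ± 0.56 in CTRL, and at 3.28 ± 0.27 and 4.89 ± 0.24 in AAKO. A glucocorticoid cue was not tested. After CL316243 4 of the 10 were higher in AAKO and 0 lower, beside 13.4% and 11.3% of all genes, with Nr4a1 at 1.56 ± 0.47 (adjusted p = 0.0138). The ranges of Nr4a1 overlapped, at -1.78 to -0.41 in CTRL and -1.02 to 2.30 in AAKO. The median fasted genotype difference was 0.13 over the first list, 1.1 over the second and 0.66 over the third, against -0.04 over all genes.

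For each clock gene the genes with the most similar levels over all 36 arrays were found by Pearson's r, as a description. The closest were Desi2 for Arntl (r = 0.932), Dtx4 for Clock (0.898), Slc12a4 for Per1 (0.813), B4galt5 for Per2 (0.936), Ttc39c for Per3 (0.864), Mpzl2 for Cry2 (0.947), Thrap3 for Nr1d1 (0.882) and Dbp for Nr1d2 (0.844). The closest features of Npas2 and Cry1 carry no gene symbol. Tef, a PAR-bZIP relative of Dbp, was the second closest to Per3 (0.858), and Thrsp, a lipogenic gene, was close to Per2 (0.923). Among the most opposite were Narf for Arntl (-0.948), Ubxn1 for Per2 (-0.943) and Tspo for Nr1d2 (-0.862). These values share group differences and arrays, and many genes differ between the groups.

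Differences between mice of a group were examined after removing the means of group and wash batch. Over 45 pairs of clock genes and 36 arrays, 12 correlations had an adjusted permutation p under 0.05 (100000 shuffles within groups, Benjamini-Hochberg over the 45 pairs, two-sided), 6 of them negative. Arntl ran against Nr1d2 (Pearson's r = -0.57, Spearman's rho = -0.61, permutation p = 0.000580, adjusted p = 0.00652) and Nr1d1 (r = -0.50, rho = -0.47, permutation p = 0.00347, adjusted p = 0.0217). Cry1, which like Arntl is repressed by REV-ERB proteins, ran against Nr1d2 (r = -0.65, rho = -0.63, permutation p = 0.000250, adjusted p = 0.00375). Clock ran against Nr1d1 (r = -0.61, rho = -0.63, permutation p = 0.000130, adjusted p = 0.00292). Without the 2 arrays farthest from the median of the first gene, r was -0.58, -0.57, -0.56 and -0.59 for these 4 pairs in turn. Within wash batches 1 and 2 it was -0.69 and -0.44 for Arntl and Nr1d2, -0.46 and -0.55 for Arntl and Nr1d1, -0.73 and -0.53 for Cry1 and Nr1d2, and -0.62 and -0.60 for Clock and Nr1d1.

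The positive pairs joined Per3 with Nr1d1 (r = 0.67, rho = 0.59, permutation p = 0.000120, adjusted p = 0.00292) and Arntl with Clock (r = 0.56, rho = 0.54, permutation p = 0.00385, adjusted p = 0.0217). Without the 2 farthest arrays r was 0.55 and 0.56, and within wash batches 1 and 2 it was 0.71 and 0.65 for the former and 0.57 and 0.55 for the latter. Cry2 ran with Nr1d2 (r = 0.55, rho = 0.55, adjusted permutation p = 0.0121) and Arntl with Cry1 (r = 0.52, rho = 0.49, adjusted permutation p = 0.0122), with 0.48 and 0.52 without the 2 farthest arrays. Per3 ran with Cry2 (r = 0.52, rho = 0.57, adjusted permutation p = 0.0403, 0.54 without those arrays) and with Nr1d2 (r = 0.52, adjusted permutation p = 0.0403). The Per3 and Nr1d2 pair fell to r = 0.30 without the 2 arrays farthest in Per3, to 0.29 within wash batch 2, and had rho = 0.35 (adjusted permutation p = 0.168), so it rests on few arrays. The remaining negative pairs were Cry1 with Nr1d1 (r = -0.47, rho = -0.36, adjusted permutation p = 0.0428 for r and 0.141 for rho) and Arntl with Per1 (r = -0.46, rho = -0.51, adjusted permutation p = 0.0386 and 0.0265). Without the 2 farthest arrays these were -0.33 and -0.46.

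**Figure D5:**
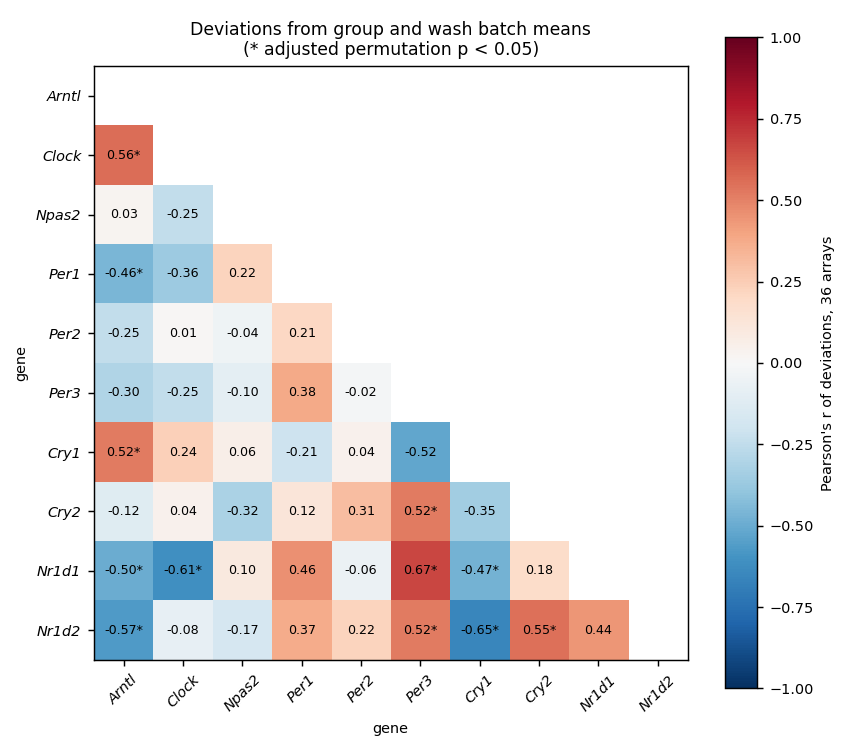
Pearson's r between clock genes across 36 arrays after the means of group and wash batch were removed, with genes on both axes and r printed and coloured in each cell. A star marks an adjusted permutation p under 0.05. Arntl and Nr1d2 (-0.57), Clock and Nr1d1 (-0.61) and Cry1 and Nr1d2 (-0.65) are the strongest negative pairs with a star, and Per3 and Nr1d1 (0.67) the strongest positive pair.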

How the data were processed

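Liver RNA of 36 mice was read on Agilent arrays, 1 per mouse. The scanner files hold spot intensity made with Agilent Feature Extraction 10.10.1.1, per the submitters' processing notes and the file headers, with the background subtracted, a trend within the array removed and low values replaced by a surrogate, per the file headers. Deposited marks (other values, 0 or 1) give well above background, saturation and outliers. The authors deposited log2 values of 36898 probes, and their normalization is not given in the sources used here.

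From the intensity, log2 minus the log2 of the array's 75th percentile was taken, outlier spots (0.127%) were left out and spots of a probe averaged. No spot was saturated. The RefSeq table matched 32994 probes by accession and changed 1535 symbols, while members kept the file's gene name. A gene was read from its probe with the highest mean and tested if 5 or more of the 6 arrays of some group had that probe well above background. Limma 3.58.1 in R 4.3.3 fitted 6 group means plus wash batch over all arrays, with eBayes and Benjamini-Hochberg adjustment per contrast, two-sided, tested first on simulated data. Errors beside fold changes are SE and beside levels SD. The bound for a probe not well above background sets the brighter group's mean against, per array, the higher of the lowest signal well above background and the probe's own. p-values measure the spread between mice, and the number of arrays limits the precision.

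The 10 members were tested in every contrast, and some that were not called are not named there. Genes of the lists of clock regulators, outputs and resetting cues were drawn from the 2 largest called differences per list and contrast. Csnk1e, Tsc22d3, Fkbp5 and some levels of named genes were added after their values were seen. Some genes of the lists are not reported here. Members, lists and markers were chosen with earlier results of these data known. Promoters and figures used Python 3.11.15, numpy 2.4.6 and matplotlib 3.10.9. Alternatives were normexp correction (offset 50), quantile normalization, median scaling, the authors' table, no dim filter, other batch terms, single wash batches, only the groups compared, other probes, and leaving out each array. Leaving out CTRL fasted replicates 2 and 5 together was chosen after seeing the data.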

Additional observations from a re-analysis of the deposited data

Results flagged for a closer look

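In 2 of the 60 sets of 6 arrays tested by Dixon's criterion, 1 array lay far from the rest of its group. Per1 was at 2.00 in CTRL CL316243 replicate 3, where the other 5 arrays lay between 2.92 and 3.28. Nr1d2 was at 2.05 in CTRL CL316243 replicate 1, where the others lay between 2.53 and 2.72. By chance alone about 5% of such sets would be marked.

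The genotype difference depended on the condition, by limma's interaction test, for 6 clock genes between fasted and fed mice: Per1 (1.45), Per2 (1.62), Per3 (2.48), Cry2 (1.42), Nr1d1 (2.68) and Nr1d2 (1.01). Between fasted and CL316243-treated mice it did so for Per2 (1.86), Per3 (3.20), Cry2 (1.57), Nr1d1 (2.45) and Nr1d2 (1.20).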

How the results depend on the processing

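The number of clock genes called kept within 1.5 times its value under every setting tried, with these exceptions. Between genotypes after CL316243 the 1 call (Per3) became 0 with no dim filter, and 0 in either wash batch alone, and ranged from 0 to 2 when single arrays were left out. For fasting against CL316243 the count was 5 within wash batch 1 in CTRL (8 in the report) and 9 in the authors' value table in AAKO (5 in the report). The dim gene Npas2 is among the 8 and the 9. For the interaction of fasted and fed it was 3 within wash batch 1 (6 in the report). A wash batch holds fewer arrays, which lowers power. The cause of the other shifts was not tested. Directions turned for Npas2 between fasting and CL316243 in AAKO (called at -0.16 after normexp correction, against 0.50 with no call). They also turned, with a call, at the third probe of Clock. This was so between fasted genotypes (0.59) and in the interactions of fasted with fed (0.84) and with CL316243 (0.74). Per3 turned at its second probe for fasting in AAKO (-1.30). Calls were lost at the second probe of Clock for fasting in AAKO (0.00, adjusted p = 0.976). The same held for the dim second probe of Per1 for fasting against CL316243 in AAKO (-0.12, adjusted p = 0.697). A replicate block ended 1 call, that of Npas2 between fasting and CL316243 in CTRL (0.78, adjusted p = 0.0532), and no other. The numbers gave no pairing: 14 of 90 same-number pairs of arrays correlated above 0.1 (median r = 0.004), and 6 of 36 arrays correlated best with their own number.

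The median of all genes for fasting against CL316243 in AAKO was -0.08, became -0.15 with normexp and 0.05 with the values the authors deposited, and 43.6%, 31.4% and 58.1% of calls were higher. Other splits that moved by over 10 percentage points were those of the interaction of fasted with CL316243 (39.3% higher, 54.9% in the authors' table), of CL316243 with fed (58.4% and 44.1%), of the genotypes after CL316243 (54.3% and 42.3%) and fed (52.6% and 66.7%), and, with median scaling, of fasting against feeding (48.3% and 37.8%) and against CL316243 (52.2% and 39.1%) in CTRL. The dim probes of Npas2 and the second probe of Per1 limit what signal over background allows.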
